A study of Rattus norvegicus with 20 samples.

Results

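The genes described here were those of the machinery that docks, primes and fuses synaptic vesicles and then takes the fusion complex apart. They were chosen by symbol and not by a check of each protein's function. The families were the synaptotagmins, syntaxins, syntaxin-binding proteins, VAMPs, genes with a *Snap* symbol, synapsins, SV2 proteins, RIMs, UNC13 proteins and complexins. *Bsn*, *Pclo*, *Syp*, *Nsf*, *Napa*, *Napb* and *Synj1* were taken by name. Of 76 symbols that matched, 75 reached 5 reads or more in 10 or more of the 20 rats and were analysed among 16605 genes that met the same minimum. The gene that did not, *Cplx4*, had 6 reads in all rats together. RNA with poly(A) tails from the medial prefrontal cortex (mPFC) of male Sprague-Dawley rats was sequenced, with 1 library from each of 10 LSD-treated rats and 10 controls. LSD-treated rats had received lysergic acid diethylamide, a serotonergic psychedelic, at 0.16 mg/kg by intraperitoneal injection every other day for 90 days from an age of 6 to 8 weeks, and controls had received saline on the same schedule. Tissue was taken after treatment had been stopped for 3 weeks, per the labels, and the study's methods give other values for this interval and for the age. The comparison asks which differences in expression were present after the drug had been withdrawn. All rats were housed singly before treatment, and the tissue was a bulk dissection.

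At a presynaptic terminal, vesicles filled with transmitter are held near the membrane by synapsins, docked at the active zone by the scaffolds Bassoon and Piccolo with RIM and UNC13 proteins, and fused when a vesicle SNARE (VAMP) zippers with the membrane SNAREs syntaxin and SNAP-25. Synaptotagmins sense the calcium that triggers fusion, complexins clamp and promote it, and syntaxin-binding proteins govern the availability of syntaxin. After fusion, the ATPase NSF and its adaptors, the SNAP attachment proteins encoded by *Napa* and *Napb*, pull the SNARE complex apart so that its parts can be used again, while synaptojanin strips the clathrin coat from retrieved vesicles.

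Reads on named genes numbered 16346629 to 25552681 in LSD-treated rats (median 20271086) and 11098076 to 24201351 in controls (median 16815424). The defining markers of neurons were present and summed to 3336 to 3838 RPM (reads scaled to the same library total in every rat, after trimmed-mean, TMM, normalisation) in LSD-treated rats and 3370.3 to 4133 RPM in controls, with *Map2* higher and *Tubb3* lower among 7 by the test described below. Of 6 inhibitory neuron markers, *Gad2* and *Vip* were higher and *Slc32a1* and *Sst* lower, and of 5 excitatory markers none passed. Among the markers of astrocytes, oligodendrocytes and their precursors, microglia, endothelium, striatal neurons and blood, *Slc1a2* was higher and *Hbb* lower. The part of cell composition in the differences of release genes was not tested. In bulk tissue, fewer cells of a type and less RNA per cell cannot be told apart. In 4 rats, which were controls 2, 8 and 9 and LSD-treated rat 9, the 6 markers of striatal neurons summed to 307.9 to 484.7 RPM, whereas the other 16 did not exceed 239.2 RPM. The same 4 had the highest sums of 6 oligodendrocyte markers, 5761 to 7479 RPM against at most 5366 RPM.

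The 3 genes that fell in LSD-treated rats were *Cplx1*, *Vamp2* and *Napa*, and the 8 that rose were *Pclo*, *Napb*, *Synj1*, *Stx3*, *Stx17*, *Stxbp6*, *Stxbp5l* and *Syt14*. The test was edgeR's quasi-likelihood F test, with p-values adjusted over all genes by Benjamini and Hochberg's method and a threshold of 0.05. These 11 of 75 genes made 14.7%, and 15% of all genes tested passed the same test, with 6.48% of all genes higher and 8.54% lower in LSD-treated rats. The share of release genes that passed was therefore near the share among all genes. The log2 fold changes of LSD-treated rats against controls ran from -0.43 to 0.49 across the 75 genes, with a median of -0.01 against 0.00 over all genes and a median size of 0.12 against 0.14. By sign, 37 were above and 38 below 0. In none of the 75 genes did the normalised levels of the groups fail to overlap, and 0.193% of all genes had groups that did not.

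**Figure D1:**
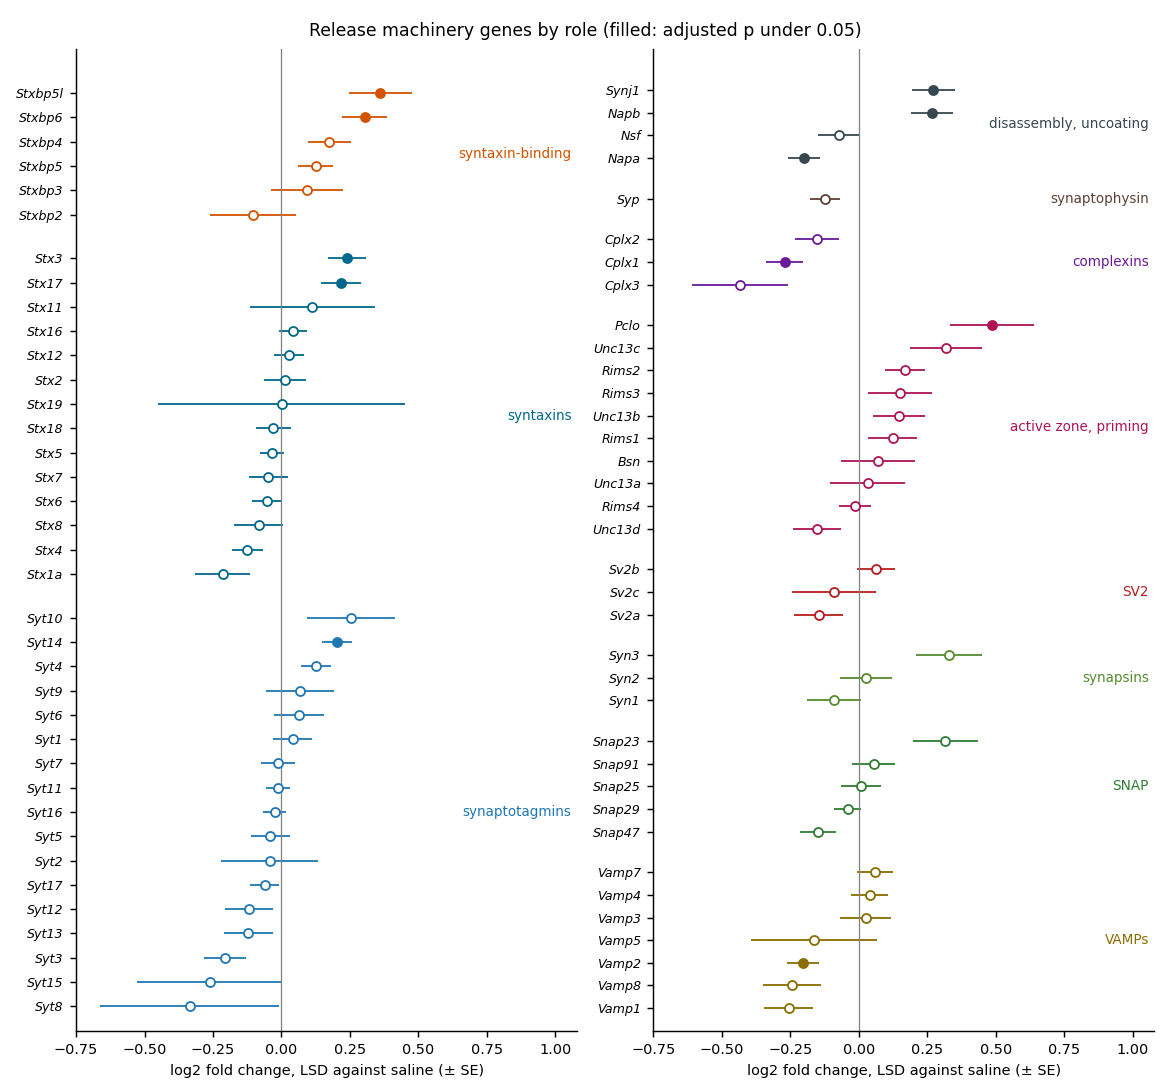
Log2 fold change of the release genes reported here, LSD-treated rats against controls (horizontal axis, point ± SE), grouped by role; filled points passed an adjusted p of 0.05. The filled points lie on both sides of 0. Of the 4 genes for disassembly and uncoating, *Napa* is filled below 0 and *Napb* and *Synj1* above it. No SNAP, synapsin or SV2 gene is filled. Of all genes tested, 15% passed.

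The genes that fell and their partners in the disassembly step were described with the sequence just upstream of their genes, because *Napa* and *Napb* encode closely related proteins yet moved in opposite directions. The 250 bases before the annotated start, from RefSeq on the GRCr8 build, read 5′ to 3′ on the strand of the gene, are chr1:85915185-85915434 (plus strand) for *Napa*, chr3:156632419-156632668 (minus strand) for *Napb*, chr10:54292539-54292788 (plus) for *Vamp2* and chr14:1328823-1329072 (plus) for *Cplx1*. Capitals mark the letters CACGTG (an E-box), TGACGTCA (a cyclic AMP response element, CRE) and GGGCGG (a GC box), each searched on both strands.
Napa: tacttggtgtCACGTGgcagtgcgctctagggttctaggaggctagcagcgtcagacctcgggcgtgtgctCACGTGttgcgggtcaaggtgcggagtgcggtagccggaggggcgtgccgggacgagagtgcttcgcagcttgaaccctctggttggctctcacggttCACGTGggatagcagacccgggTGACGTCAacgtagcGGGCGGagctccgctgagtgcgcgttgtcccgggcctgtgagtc
Napb: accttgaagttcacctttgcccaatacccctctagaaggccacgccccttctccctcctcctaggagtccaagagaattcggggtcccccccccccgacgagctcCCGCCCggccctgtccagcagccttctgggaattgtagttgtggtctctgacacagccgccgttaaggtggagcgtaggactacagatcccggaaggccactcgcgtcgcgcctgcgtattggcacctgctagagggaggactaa
Vamp2: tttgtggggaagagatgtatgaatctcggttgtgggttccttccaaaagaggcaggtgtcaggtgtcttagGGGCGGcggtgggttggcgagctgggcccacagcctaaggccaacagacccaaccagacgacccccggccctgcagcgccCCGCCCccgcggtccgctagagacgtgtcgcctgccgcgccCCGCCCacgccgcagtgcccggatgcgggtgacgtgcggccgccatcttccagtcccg
Cplx1: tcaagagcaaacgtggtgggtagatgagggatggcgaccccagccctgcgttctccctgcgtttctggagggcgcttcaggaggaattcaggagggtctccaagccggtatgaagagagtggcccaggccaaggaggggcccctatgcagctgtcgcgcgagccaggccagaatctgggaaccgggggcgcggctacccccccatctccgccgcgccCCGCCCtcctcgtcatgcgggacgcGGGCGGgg
The *Napa* window held 3 E-boxes, 1 CRE and 1 GC box, whereas the *Napb* window held 1 GC box and neither of the other motifs. Those of *Vamp2* and *Cplx1* held 3 and 2 GC boxes. Over all 33469 windows of this length, 5.59% held the E-box, 1.59% the CRE and 30.5% the GC box. These windows were not limited to the genes tested here, so their shares are not a like baseline for the release genes. A window was matched for 60 of the 75 release genes, of which 7, 3 and 39 held the E-box, the CRE and the GC box. All 11 genes that passed the test were matched, and 8 of them held a GC box, while the E-box and the CRE were each found in 1, *Napa*. These matches describe the letters and not the binding of any factor.

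Expression levels in TMM-normalised RPM are not divided by transcript length, so a level is compared between rats and never between genes. Of the genes for disassembly and uncoating, *Napa* encodes alpha-SNAP, the adaptor that recruits NSF to spent SNARE complexes. Its level was lowest at 249, median 268 and highest at 301 RPM in LSD-treated rats, against 272, 299 and 392 RPM in controls. Of the 10 LSD-treated rats, 9 were below the control median and 6 below every control, and *Napa* fell by 0.20 on the log2 scale (SE 0.058, adjusted p = 0.0249, edgeR). This call was lost with scaling by total counts (log2 fold change -0.16, adjusted p = 0.0587) and without a filter on low counts (-0.18, adjusted p = 0.0670). *Napb*, which encodes the brain-enriched beta-SNAP, ran from 434 over a median of 503 to 579.8 RPM in LSD-treated rats and from 334 over 404 to 542 RPM in controls. All 10 LSD-treated rats were above the control median, 2 of them above every control, and the gene rose by 0.27 on the log2 scale (SE 0.076, adjusted p = 0.0228, edgeR). *Synj1*, the gene of synaptojanin, was at 337, 425 and 488 RPM (lowest, median and highest) in LSD-treated rats against 235, 354 and 390.3 RPM in controls. It was above every control in 7 LSD-treated rats and differed by 0.27 on the log2 scale (SE 0.080, adjusted p = 0.0257, edgeR). *Nsf*, the ATPase itself, spanned 941 to 1249 RPM in LSD-treated rats and 918 to 1364 RPM in controls, and its log2 fold change of -0.07 (SE 0.075) did not pass the test (adjusted p = 0.553, edgeR).

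Complexins bind the assembled SNARE complex. *Cplx1* was at 596, 652 and 766 RPM (lowest, median and highest) in LSD-treated rats and at 606, 792 and 978 RPM in controls. All 10 LSD-treated rats lay below the control median, and the gene fell by 17.1% (log2 fold change -0.27, SE 0.068, adjusted p = 0.0133, edgeR). It was called in each of 11 alternative analyses and in each of 20 repeats without 1 rat. Its relative *Cplx2* ranged from 517 to 758 RPM in LSD-treated rats and from 601 to 934 RPM in controls, with a log2 fold change of -0.15 (SE 0.080, adjusted p = 0.196, edgeR). *Cplx3*, best known from ribbon synapses and named here after its values were seen, had the most negative log2 fold change of the 75 genes, -0.43, but with an SE of 0.18 it did not pass (adjusted p = 0.0968). Of the 3 complexins measured, 1 passed and all had negative fold changes.

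Among the 7 VAMPs, the vesicle SNAREs, *Vamp2* fell and the other 6 did not pass the test. *Vamp2*, the main vesicle SNARE of forebrain synapses, was at 1055, 1153 and 1384 RPM (lowest, median and highest) in LSD-treated rats and at 1122, 1342 and 1478 RPM in controls. The highest LSD-treated rat stood apart from the other 9, which did not exceed 1190.5 RPM, and 9 of 10 were below the control median. The log2 fold change was -0.20 (SE 0.058, adjusted p = 0.0237, edgeR), and -0.19 without a filter on low counts, where the call was lost (adjusted p = 0.0696). *Vamp1*, the relative found mostly in hindbrain and spinal cord, ranged from 159.6 to 229 RPM in LSD-treated rats and from 176 to 327 RPM in controls, with a log2 fold change of -0.26 (SE 0.089) just outside the threshold (adjusted p = 0.0525, edgeR). It passed in 5 of 11 alternative analyses, among them DESeq2 (adjusted p = 0.0370).

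*Stx1a* and *Snap25*, membrane SNAREs that pair with VAMP2, did not pass. *Stx1a*, a syntaxin of the neuronal SNARE complex, had a log2 fold change of -0.21 (SE 0.10, adjusted p = 0.151, edgeR), and 9 of 10 LSD-treated rats were below the control median. *Snap25* was at 1695, 2011 and 2185 RPM (lowest, median and highest) in LSD-treated rats and at 1454, 2083 and 2309 RPM in controls, with a log2 fold change of 0.01 (SE 0.073, adjusted p = 0.948, edgeR). The syntaxins that rose act elsewhere: *Stx3* is a syntaxin of apical membranes, ribbon synapses and dendrites, and *Stx17* acts in the fusion of autophagosomes with lysosomes. *Stx3* was at 20, 23.8 and 29.4 RPM in LSD-treated rats and at 17.8, 20.3 and 23.1 RPM in controls (log2 fold change 0.24, SE 0.070, adjusted p = 0.0254, edgeR), and 6 of the LSD-treated rats exceeded every control. For *Stx17* the corresponding levels were 11.5, 12.7 and 14.6 RPM against 9.17, 11.1 and 13.4 RPM, and all 10 LSD-treated rats exceeded the control median (log2 fold change 0.22, SE 0.073, adjusted p = 0.0453, edgeR). The *Stx17* call was lost without a filter on low counts (adjusted p = 0.0581). The annotation places *Mrpl16*, *Cblif*, a pseudogene and a long non-coding RNA over *Stx3*, and a pseudogene over *Stx17*. Overlap was taken from the first to the last base of each gene, and exons were not compared. The strand setting of the counting is not given in the sources used here. Whether reads of these neighbours were counted for *Stx3* or *Stx17* was not tested. The remaining 13 of 15 syntaxins did not pass, among them *Stx19*, which had the fewest reads of the genes kept (1 to 10 in a rat).

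Of the 7 syntaxin-binding genes, 2 rose. *Stxbp6* encodes amisyn, which binds syntaxin and SNAP-25 without being anchored in the vesicle. It was at 75.9, 84.7 and 111 RPM (lowest, median and highest) in LSD-treated rats and at 54.1, 73.6 and 81.5 RPM in controls. All 10 LSD-treated rats were above the control median and 5 above every control (log2 fold change 0.30, SE 0.083, adjusted p = 0.0190, edgeR). *Stxbp5l* encodes tomosyn-2, whose SNARE-like end competes with VAMP2 for the membrane SNAREs. Its levels were 25.3, 29 and 35.3 RPM against 11.8, 24 and 30.1 RPM in controls, again with all 10 LSD-treated rats above the control median (log2 fold change 0.36, SE 0.12, adjusted p = 0.0373, edgeR). An annotated pseudogene overlaps *Stxbp5l*.

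**Figure D2:**
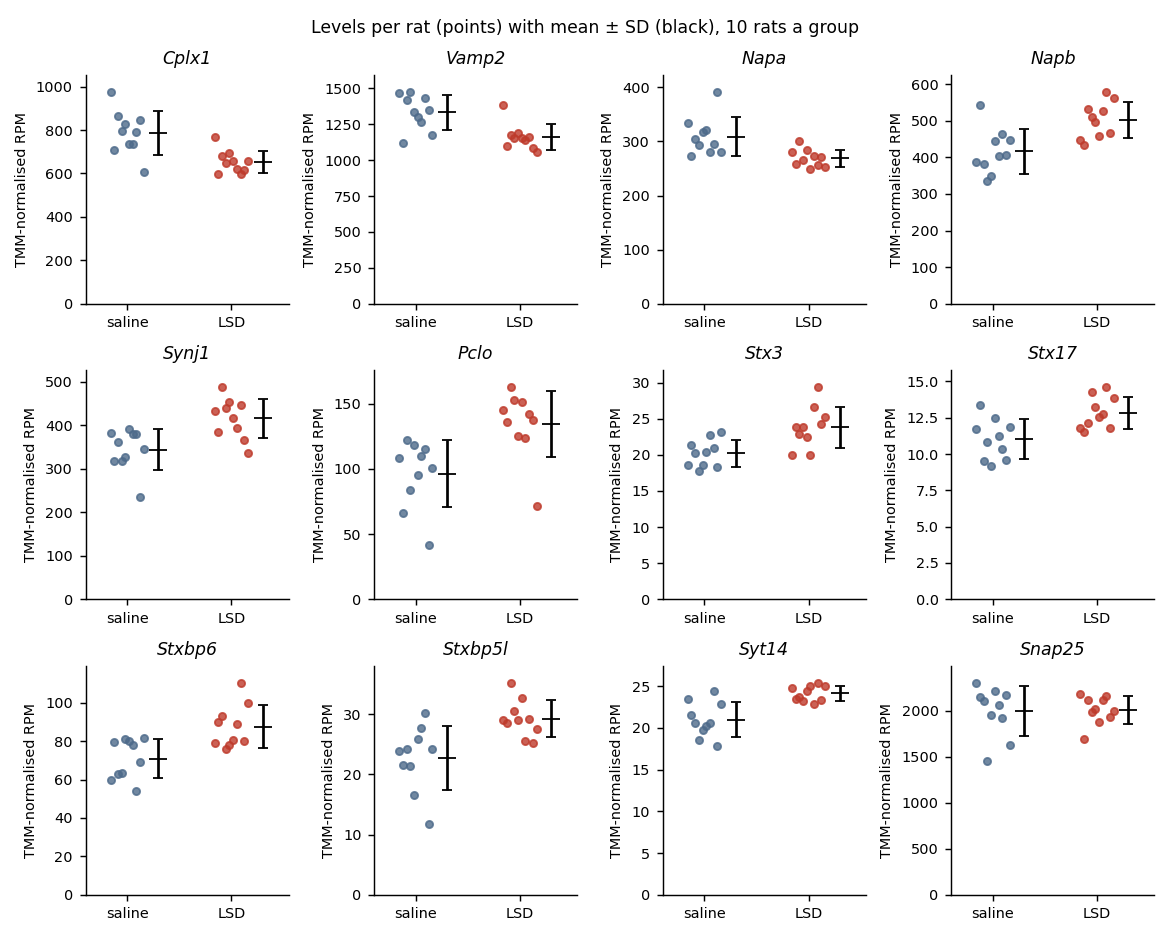
TMM-normalised RPM (vertical axis, starting at 0) of the 11 genes that passed the test and of *Snap25*, with 1 point per rat and the mean ± SD of 10 rats beside each group. *Cplx1*, *Vamp2* and *Napa* lie lower in LSD-treated rats, 8 genes lie higher, *Snap25* overlaps throughout, and the groups overlap in every panel.

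Of the 17 synaptotagmins, *Syt14* rose and 16 did not pass. SYT14 lacks the residues that bind calcium, so it is not among the family's calcium sensors. It was at 22.9, 24.1 and 25.4 RPM (lowest, median and highest) in LSD-treated rats and at 17.8, 20.6 and 24.4 RPM in controls, with 5 LSD-treated rats above every control (log2 fold change 0.20, SE 0.055, adjusted p = 0.0189, edgeR). Its SD was 0.909 RPM in LSD-treated rats and 2.12 RPM in controls. The log2 fold changes of *Syt1*, *Syt2* and *Syt7*, which are calcium sensors, were nearer 0. This did not hold for every synaptotagmin that did not pass, as *Syt3* and *Syt10*, named after their values were seen, show. *Syt3* had -0.21 (SE 0.077, adjusted p = 0.0698, edgeR) and passed in 3 of 11 alternative analyses. *Syt10* had 0.26 (SE 0.16, adjusted p = 0.293, edgeR). *Syt1*, the sensor of fast synchronous release in forebrain, ranged from 1335 to 1837 RPM in LSD-treated rats and from 1302 to 1822 RPM in controls, with a log2 fold change of 0.04 (SE 0.072, adjusted p = 0.750, edgeR). *Syt2*, the fast sensor of hindbrain and of some inhibitory neurons, had -0.04 (SE 0.18, adjusted p = 0.899) and *Syt7*, a slower sensor of high calcium affinity, had -0.01 (SE 0.062, adjusted p = 0.921).

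Among the 10 active zone and priming genes, *Pclo* rose, and it had the most positive log2 fold change of all 75. Piccolo is a very large scaffold that shares with Bassoon the task of tethering vesicles at the active zone. *Pclo* was at 71.3, 139.8 and 163 RPM (lowest, median and highest) in LSD-treated rats and at 41.3, 105 and 122 RPM in controls, a level 40.2% higher. In 9 LSD-treated rats it exceeded every control, while the remaining rat was below the control median (log2 fold change 0.49, SE 0.15, adjusted p = 0.0365, edgeR). *Bsn* overlapped throughout, at 375 to 763 RPM in LSD-treated rats and 338 to 689.5 RPM in controls (log2 fold change 0.07, SE 0.13, adjusted p = 0.776, edgeR). The RIM genes, which link vesicles to calcium channels, had log2 fold changes of 0.12 for *Rims1* (SE 0.089, adjusted p = 0.366) and 0.17 for *Rims2* (SE 0.073, adjusted p = 0.113). Of the UNC13 genes, *Unc13a* had 0.03 (SE 0.14, adjusted p = 0.904) and *Unc13b* 0.15 (SE 0.094, adjusted p = 0.299). *Unc13c* and *Unc13d*, named after their values were seen, had 0.32 (SE 0.13, adjusted p = 0.103) and -0.15 (SE 0.088, adjusted p = 0.249). *Unc13c* passed without the 4 rats high in striatal markers (log2 fold change 0.47, adjusted p = 0.0190, edgeR).

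None of the 3 synapsins, 3 SV2 genes and 5 genes grouped by a *Snap* symbol, among them *Snap91*, passed, nor did *Syp*. *Syn3*, the synapsin of developing neurons, had a log2 fold change of 0.33 (SE 0.12, adjusted p = 0.0679), with 6 LSD-treated rats above every control, whereas *Syn1* had -0.09 (SE 0.099, adjusted p = 0.584) and *Syn2* 0.03 (SE 0.094, adjusted p = 0.880). *Snap23*, the widely expressed relative of *Snap25*, had 0.32 (SE 0.12, adjusted p = 0.0756) at a low 4.68 to 8.06 RPM in LSD-treated rats. Both *Syn3* and *Snap23* passed with DESeq2 (adjusted p = 0.0499 and 0.0456). Other protein-coding genes are annotated over *Syn3* (*Timp3* and *Fbxo7*) and *Snap23* (*Lrrc57*), again without a comparison of exons. The same holds for other release genes, among them *Syn1* (*Timp1*, *Araf* and *LOC102555453*), *Syn2* (*Timp4*), *Syt1* (*Brcc3dc*) and *Unc13b* (*Tmsb4xl2*). Whether reads of these neighbours were counted for any of these release genes was not tested. *Sv2a*, a vesicle glycoprotein gene, had -0.15 (SE 0.089, adjusted p = 0.281), although all 10 LSD-treated rats were below its control median of 817 RPM. *Sv2b* and *Sv2c* had 0.06 (SE 0.070, adjusted p = 0.583) and -0.09 (SE 0.15, adjusted p = 0.742). *Syp*, the vesicle membrane protein widely used as a marker of terminals, ranged from 1574 to 1938 RPM in LSD-treated rats and from 1643 to 2079.8 RPM in controls (log2 fold change -0.12, SE 0.055, adjusted p = 0.123, edgeR).

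The balance between paralogs was then compared within each rat, as the log2 ratio of the reads of a pair, because a ratio within a library does not move with its scaling. Of 11 pairs, *Napa*/*Napb*, *Bsn*/*Pclo* and *Sv2a*/*Sv2b* differed between the groups by an exact two-sided permutation test over all splits of the 20 rats, with Benjamini-Hochberg adjustment over the 11 pairs. The first 2 pairs hold genes already called above, so their ratios restate those differences free of scaling. The log2 ratio of *Napa* to *Napb* was lowest at -1.17, median -0.85 and highest at -0.68 in LSD-treated rats, against -0.99, -0.40 and -0.05 in controls. All 10 LSD-treated rats were below the control median and 2 below every control, so that the median read ratio was 0.555 in LSD-treated rats and 0.757 in controls. The difference of means was -0.47 (permutation p = 0.000552, adjusted p = 0.00304). For *Bsn* to *Pclo*, the log2 ratios were 1.84, 2.11 and 2.39 in LSD-treated rats and 2.23, 2.46 and 3.03 in controls. Here 9 LSD-treated rats were below every control, and the difference was -0.43 (permutation p = 0.000119, adjusted p = 0.00131). The log2 ratio of *Sv2a* to *Sv2b* was 0.03, 0.17 and 0.30 against 0.03, 0.37 and 0.54, a difference of -0.19 (permutation p = 0.00796, adjusted p = 0.0292), with all 10 LSD-treated rats below the control median. This last call was lost without LSD-treated rat 3, 8 or 10 or control 1, 3, 5 or 8 (exact permutation, adjusted p of up to 0.0556). With a correction for the genomic span of the genes the *Sv2a*/*Sv2b* difference was -0.07 (exact permutation, adjusted p = 0.454), whereas *Napa*/*Napb* kept -0.40 (adjusted p = 0.00470) and *Bsn*/*Pclo* kept -0.40 (adjusted p = 0.00214).

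The other 8 pairs did not pass. *Snap23*/*Snap25* differed by 0.33 and *Syn1*/*Syn2* by -0.13 (exact permutation, adjusted p = 0.0832 for both). Among the rest, the exact permutation test gave *Cplx1*/*Cplx2* -0.12 (adjusted p = 0.192), *Unc13a*/*Unc13b* -0.09 and *Rims1*/*Rims2* -0.04 (adjusted p = 0.382 for both), *Vamp1*/*Vamp2* -0.05 (adjusted p = 0.575) and *Syt1*/*Syt2* 0.06 (adjusted p = 0.719).

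**Figure D3:**
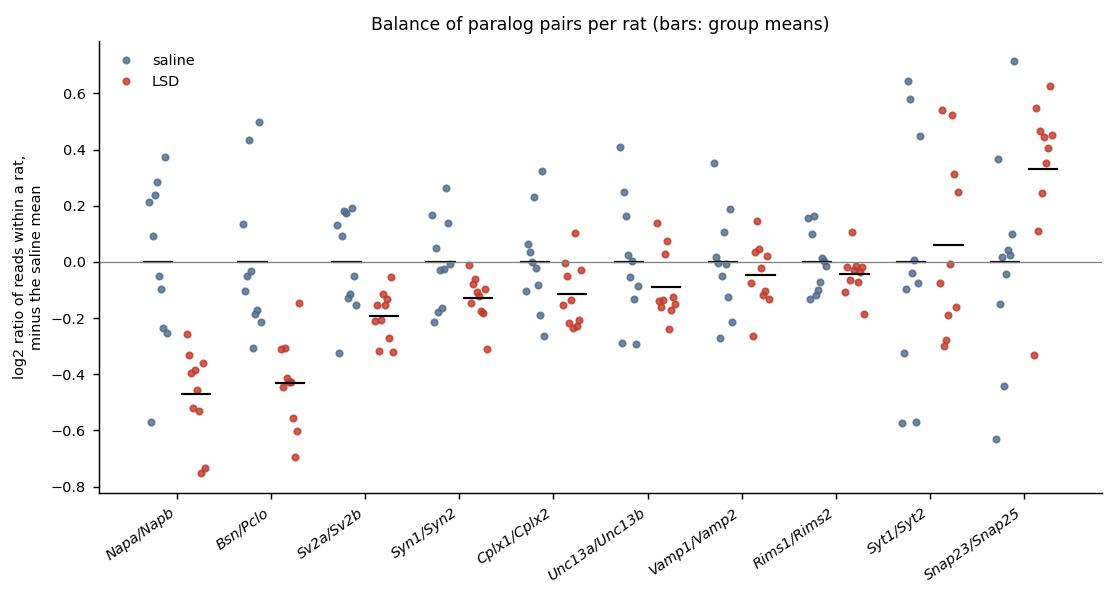
Log2 ratio of reads of 10 paralog pairs in each rat, after subtracting the mean of the controls (vertical axis), with 1 point per rat and bars at the group means. All 10 LSD-treated rats sit below 0 in *Napa*/*Napb* and *Bsn*/*Pclo*, by 0.47 and 0.43 on average, and the mean of *Snap23*/*Snap25* lies 0.33 above it.

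The genes that rose were longer than those that fell. The genomic span runs from the first to the last base of the gene in GRCr8. It was 47.0 to 358.6 kb (median 163.3 kb) in the 8 genes that rose. In the 3 that fell it was 4.24 to 31.7 kb (median 19.0 kb). The median was 47.0 kb over the 75 genes and 24.5 kb over all tested genes that have a span. Across the 75 genes, Spearman's rho between span and log2 fold change was 0.61, against 0.36 over the 14929 tested genes that have a span. Genes are not independent replicates, and these values are descriptive. In each rat, the deviation of each gene outside the release set from its mean over all rats was regressed on span. The slope was lowest at -0.0676, median -0.0101 and highest at 0.0088 log2 units per doubling of span in controls. In LSD-treated rats it was 0.0048, 0.0149 and 0.0249. The sign of a slope places a rat relative to the others and does not say that expression rises or falls with span. All 10 LSD-treated rats were above the control median. When each rat's trend with span was removed by an offset in the edgeR fit, 3 release genes passed, of which *Cplx1* (log2 fold change -0.30, adjusted p = 0.0138) and *Napa* (-0.18, adjusted p = 0.0434) were among the 11 above, and *Syt4*, named for this reason alone, was added. The other 9 kept their sign and lost their call, with log2 fold changes of 0.22 for *Napb* (adjusted p = 0.0533), 0.21 for *Synj1* (0.0659), 0.38 for *Pclo* (0.0725), 0.25 for *Stxbp5l* (0.0856), 0.11 for *Syt14* (0.126), 0.16 for *Stx17* (0.136), -0.13 for *Vamp2* (0.148), 0.19 for *Stxbp6* (0.152) and 0.14 for *Stx3* (0.169). With this offset 568 of all 16605 genes were higher and 1107 lower, and rho was 0.30 over the 75 genes and 0.05 over all genes. The part that the span trend plays in these differences was not tested further.

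**Figure D4:**
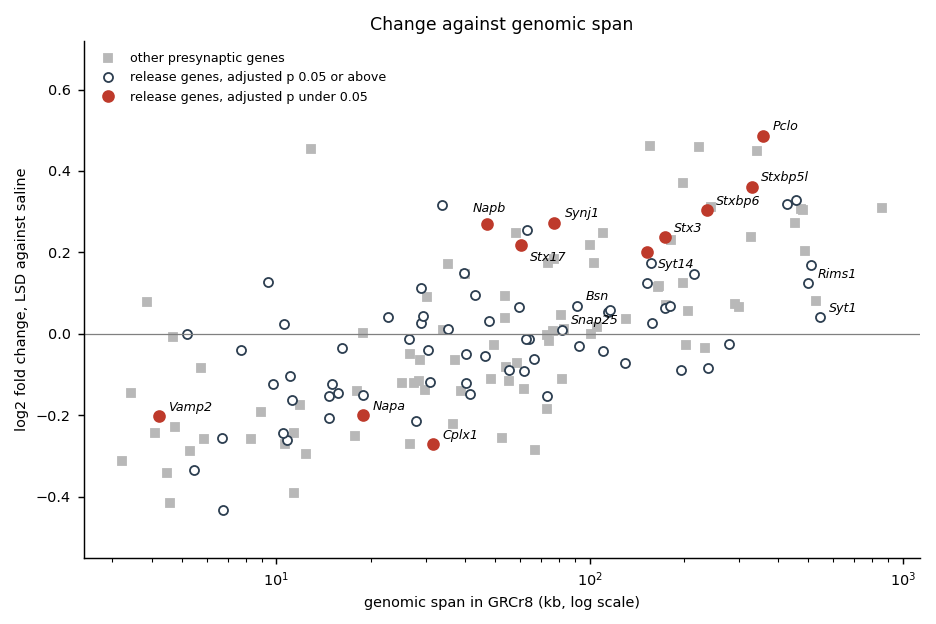
Log2 fold change, LSD-treated rats against controls (vertical axis), against genomic span in kb (horizontal log axis) for the 75 release genes and 84 other presynaptic genes. The genes that rose lie at 47.0 kb and above, and the 3 that fell at 31.7 kb and below.

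Without the 4 rats that were high in striatal and oligodendrocyte markers, 12 release genes passed, 10 of which were among the 11, and *Pclo* did not pass (log2 fold change 0.35, adjusted p = 0.0523, edgeR). In that fit 1701 of 16235 genes in all were higher and 1689 lower. The call on *Pclo* was also lost when LSD-treated rat 2, 3, 4, 6, 8 or 9 or control 4 or 6 was left out (adjusted p of up to 0.0679, edgeR). That on *Stxbp5l* was lost without LSD-treated rat 3, 4, 5, 6 or 8 or control 1, 3, 4 or 5 (up to 0.0705), and that on *Stx17* without LSD-treated rat 3, 4, 5, 6, 7, 8 or 10 or control 1, 3, 4, 5, 7, 8 or 9 (up to 0.0897). *Stx3* was lost without LSD-treated rat 8 (adjusted p = 0.0540, edgeR), and *Synj1* and *Vamp2* without control 4 (0.0515 and 0.0504). The fewest release genes, 6, passed without control 4, next 7 without LSD-treated rat 8, and the most, 16, without control 2 or control 10. The counts over all genes moved too, from 1076 higher and 1418 lower with all rats. They were 705 and 957 without control 4 and 663 and 969 without LSD-treated rat 8. Without control 2 they were 1669 and 1907, and without control 10 they were 1368 and 1776.

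**Figure D5:**
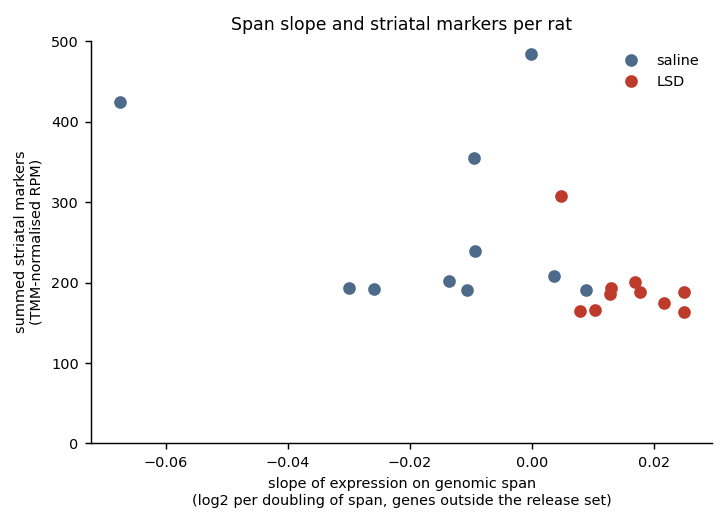
Slope on genomic span in each rat (horizontal axis, log2 units per doubling of span, genes outside the release set) against the summed level of 6 striatal markers (vertical axis, TMM-normalised RPM). The slope is that of each gene's deviation from its mean over all rats. LSD-treated rats lie at slopes of 0.0048 and above, and 4 rats exceed 300 RPM, 3 of them controls.

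The spread between rats also differed. The SD of log2 levels was larger in controls for 65 of the 75 release genes (86.7%), with a median of 0.20 in controls and 0.15 in LSD-treated rats. Over all genes tested it was larger in controls for 76.7%, with medians of 0.19 and 0.15. The direction was thus that of the transcriptome at large, and the difference between the shares was not tested.

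Outside the release genes, 84 other genes of the vesicle cycle were examined. In LSD-treated rats 12 of them were higher and 13 lower (29.8%), beside 15% of all genes. This list was chosen with earlier results of these data known, and the difference between the shares was not tested. The median log2 fold change of the 84 genes was -0.01. None of the 21 genes of the vesicle membrane and of transmitter loading was higher and 6 were lower, and of 19 other active zone genes 5 were higher and 1 lower. Of 15 genes of Rab3, its effectors and dense-core vesicle priming 2 were higher and 3 lower, and of 29 genes of endocytosis and recycling 5 were higher and 3 lower. Differences between these groups of genes were not tested. *Ppfia2* and *Erc2*, genes of the active zone scaffolds liprin-alpha-2 and ELKS2, rose by 0.31 on the log2 scale (adjusted p = 0.00676 and 0.00697, edgeR), as did *Amph*, the gene of the endocytic adaptor amphiphysin (0.31, adjusted p = 0.00992). *Syngr2*, a relative of synaptophysin, fell by 0.42, *Scamp3*, a carrier protein of recycling membranes, by 0.26 and *Rab3d*, a small GTPase of secretory vesicles, by 0.27 (adjusted p = 0.00526, 0.00619 and 0.00663, edgeR). Spearman's rho between span and log2 fold change was 0.73 over these 84 genes. With the span offset 6 of them were higher and 12 lower, beside 568 and 1107 of all 16605 genes.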

How the data were processed

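Libraries of poly(A) RNA from the mPFC of 20 rats, 1 per rat, were analysed. The deposited table holds counts of reads per gene, which the authors made by trimming with TrimGalore, alignment to rn6 with HISAT2 and counting with HTSeq. Versions, annotation and strand setting are not given in the sources used here. It lists 31038 genes, and 5 unnamed entries, with 25.5% to 29.0% of the reads of a rat, were left out. Groups came from the treatment label. Genes reaching 5 reads or more in 10 rats or more were tested in R 4.3.3 with edgeR 4.0.16 (TMM, quasi-likelihood F test, no covariate, Benjamini-Hochberg adjustment, threshold 0.05), which was tested on simulated data. SE is the size of the log2 fold change divided by the square root of F. Alternatives were DESeq2 1.42.0, other size factors, filters and depth, a surrogate variable (sva 3.50.0), a replicate block, an offset for genomic span (50 bins, smoothed over 5), each rat left out, and, chosen after seeing the data, 4 rats left out. Spans and promoter windows are from GRCr8, a build other than that of the counts. Named genes were a set of core release genes, every release gene past the threshold, symbols failing the minimum, the gene with fewest reads, the members of 11 paralog pairs and, of the other presynaptic genes, the 3 with the smallest p in each direction. Genes, lists and pairs were chosen with earlier results of these data known. Single-gene values of 2 of the release genes, and the 1 pair that holds one of them, are not reported here, but they stay in the counts.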

Additional observations from a re-analysis of the deposited data

Results flagged for a closer look

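Of 108 groups of 10 rats examined with Dixon's test, 8 held a rat whose distance from its nearest neighbour was above the 95% critical value, where chance gives about 1 in 20. In LSD-treated rat 1, *Vamp2* was at 1384 RPM, with the other LSD-treated rats at 1055 to 1190.5 RPM. *Scamp3* was at 63.1 RPM in the same rat, with the others at 47.5 to 54.7 RPM. In LSD-treated rat 10, *Pclo* was at 71.3 RPM against 124 to 163 RPM in the others. In LSD-treated rat 9, the summed striatal markers reached 307.9 RPM against 163 to 201 RPM. The remaining values were from control 9, where *Napa* was at 392 RPM (272 to 334 RPM in the other controls), *Synj1* at 235 RPM (318 to 390.3 RPM) and *Erc2* at 38.2 RPM (48.2 to 59.0 RPM). In control 9 the slope of the genes' deviations on genomic span was -0.0676, with -0.0300 to 0.0088 in the other controls. The calls on *Napa* and *Synj1* held without control 9, that on *Vamp2* without LSD-treated rat 1 and that on *Pclo* without LSD-treated rat 10.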

How the results depend on the processing

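Of 447 comparisons of the 41 named genes with alternatives other than leaving out 1 rat, 380 had the same direction and side of the threshold. With the span offset 568 genes in all were higher and 1107 lower. There 1 release gene was higher and 2 lower, and 6 other presynaptic genes were higher. With the replicate block added to that offset, 758 genes in all were higher and 1305 lower. There 2 release genes were higher and 8 lower, and 6 other presynaptic genes were higher. Without a filter 836 genes in all and 1 release gene were lower. With 1 surrogate variable 2010 genes in all and 8 release genes were lower, with *Vamp1* (adjusted p = 0.00843, edgeR), *Stx1a* (0.0320) and *Syp* (0.0495) among those gained. *Syn3* (adjusted p = 0.0407, edgeR) and *Snap23* (0.0235) were gained among the higher, where 1582 genes in all passed. Scaling by total counts gave 1504 genes higher and 858 lower, against 1076 and 1418 with TMM, and 11 and 2 release genes. Without the 4 rats high in striatal markers 1701 genes in all were higher. Leaving out 1 rat gave 663 to 1669 genes in all higher and 957 to 1907 lower, and 4 to 10 release genes higher and 2 to 6 lower. Release genes higher were fewest, 4, without LSD-treated rat 8 or control 4, and were 5 without LSD-treated rat 3, 4 or 6. Lower ones were 5 without LSD-treated rat 1 and 6 without control 2 or 10. The cause of these shifts was not tested.

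Replicate numbers are shared by the groups. Same-numbered rats had correlations of their deviations from -0.26 to 0.47, over 0.1 in 6 of 10 pairs. Their mean was 0.15, against -0.016 between rats of different numbers, and 1 LSD-treated rat correlated best with its own number. The main fit did not pair the rats, and whether the numbers mark a shared block was not tested. Over all genes, 1355 were higher and 1606 lower with the block, against 1076 and 1418 without it. With the replicate block 7 release genes were lower and 9 higher, the call on *Stx17* was lost (adjusted p = 0.0595, edgeR) and *Vamp1* (0.0118), *Stx1a* (0.0368), *Syn3* (0.0468) and *Snap23* (0.0321) passed, and exact sign-flip tests on pairs gave an adjusted p of 0.0286 for *Snap23*/*Snap25* (0.33) and 0.0591 for *Sv2a*/*Sv2b* (-0.19).

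*Sv2a*/*Sv2b* was also not called by an exact rank sum test (difference -0.19, adjusted p = 0.0539) or with the span offset (-0.066), and ranged from -0.23 to -0.17 without 1 rat, losing its call without LSD-treated rat 3, 8 or 10 or control 1, 3, 5 or 8 (exact permutation, adjusted p of up to 0.0556). *Snap23*/*Snap25* ranged from 0.26 to 0.41 and *Syn1*/*Syn2* from -0.15 to -0.10, the first passing without LSD-treated rat 1 or control 10 and the second without control 2 or 4. *Syt1*/*Syt2* was -0.052 without the 4 rats and ranged from -0.0021 to 0.13.

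Several values that had not passed the test changed sign, and none of these passed it after the change. With the span offset the log2 fold changes were -0.083 for *Syt1*, -0.073 for *Snap25*, -0.018 for *Unc13a*, -0.011 for *Bsn*, -0.064 for *Syn2* and -0.035 for *Sv2b*, and with the block added -0.081 for *Syt1*, -0.061 for *Snap25*, -0.051 for *Syn2* and -0.041 for *Sv2b*. Without the 4 rats they were -0.014 for *Syt1*, 0.0046 for *Syt2*, -0.11 for *Unc13a*, -0.045 for *Bsn*, -0.077 for *Syn2* and 0.094 for *Sv2c*. Scaling by total counts gave 0.0011 for *Syt2* and 0.035 for *Syt7*, no filter gave 0.0049 for *Syt7*, and *Stx19* had -0.00080 with median-ratio size factors and -0.011 with a surrogate variable. Without 1 rat, the ranges were -0.11 to 0.058 for *Syt2*, -0.038 to 0.014 for *Syt7*, -0.033 to 0.037 for *Snap25*, -0.037 to 0.092 for *Unc13a*, -0.014 to 0.087 for *Syn2*, -0.15 to 0.035 for *Sv2c* and -0.12 to 0.093 for *Stx19*.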
